A study of Mus musculus with 8 samples.

Results

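Catalase and 9 further antioxidant genes were followed in gonadal white fat of mice labelled as adipose knockouts of Pex5, the import receptor of peroxisomes, and of their controls. The members were Cat, Sod1, Sod2, Gpx3, Gpx4, Hmox1, Nqo1, Txnrd1, Gclc and Gstk1. They were taken by name from a list of enzymes that remove reactive oxygen species, and a probe set counted where its annotated symbol was exactly one of these. All 10 were measured, by 22 probe sets (short groups of probes on an Affymetrix array that report one transcript), out of 18193 genes on the array. The knockout group held 4 arrays labelled aP2-Pex5 -/-, replicates 6, 8, 9 and 10, and the control group held 4 arrays labelled wild type, replicates 1, 2, 3 and 4. The animals were 10 weeks old and untreated, and the control mice had a Swiss background. The background of the knockout mice is not given here, so a difference in background cannot be told apart from genotype. The label of the knockout names aP2, the promoter of the fatty acid binding protein gene Fabp4, which is active in adipocytes and can also be active in other cells such as macrophages. Whole tissue was used, so cells that kept Pex5 contributed to each sample, and fewer cells of a type cannot be told apart from less RNA per cell.

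Peroxisomes contain oxidases that pass electrons to oxygen and release hydrogen peroxide, and catalase, the main enzyme of the peroxisomal matrix, breaks that peroxide down. PEX5 is the receptor that carries catalase and most other matrix enzymes from the cytosol into the organelle. Superoxide dismutases turn superoxide into hydrogen peroxide, glutathione peroxidases reduce hydrogen peroxide and lipid peroxides, and Hmox1, Nqo1, Txnrd1 and Gclc are known targets of NRF2, the transcription factor of the oxidative stress response. The arrays measured transcripts, not the amount of a protein or its place in the cell.

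The deposited values were log2 expression values made by the authors with RMA, and a difference of 1 on this scale is a 2-fold ratio. Array medians lay between 6.44 and 6.52. Pex5 itself read 9.50, 9.27, 9.38 and 9.30 in knockouts 6, 8, 9 and 10, against 9.52, 9.58, 9.34 and 9.06 in controls 1, 2, 3 and 4 by its brighter probe set. The values of the groups overlapped, with differences of -0.01 by this probe set and 0.04 by the other. The labels do not say which exons were deleted, so these probe sets cannot check the genotype labels. The tissue label was borne by adipocyte markers, whose mean over 9 measured genes was 13.32 to 13.49 on the knockout arrays and 13.16 to 13.47 on the control arrays. On 3 arrays, knockout 9 and controls 1 and 4, the control probes at the 3' end of pyruvate carboxylase exceeded those at its 5' end by 3.97 to 4.83, against 1.59 to 2.10 on the other 5. Such a difference can be a sign of lower RNA quality, but no other transcript was used to check it. It is called the RNA quality measure below. Liver markers stood at 11.19 on control 1 and at 6.70 to 9.15 elsewhere. Epididymal markers stood at 8.03 on knockout 8 and at 4.94 to 6.04 elsewhere. The labels do not give the sex of the animals. Neutrophil markers stood at 7.88 on control 4 and at 5.66 to 6.02 elsewhere, and control 4 was the highest array for Sod1 and Txnrd1 and the lowest for Sod2, Gpx4 and Gstk1. The part of these markers in the members' values was not tested. The values of each array's distribution also placed knockouts 6 and 8 with controls 1 and 2 (array set 1) and knockouts 9 and 10 with controls 3 and 4 (array set 2).

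None of the antioxidant members differed between the groups by the limma test. Among the 10 members 0 had a limma adjusted p under 0.05, with 0% of all 18193 genes called, and 0 had an unadjusted p under 0.05, where 2.56% of all genes did. The groups overlapped in each of the 10 members, while they did not overlap in 1.70% of all genes. The differences, knockout minus control, ran from -0.27 for Hmox1 to 0.22 for Gpx3. Of the 10 members 6 lay lower and 4 higher in knockout, with a median of -0.05, against 53.3% of all genes lower and a median of -0.00817. The half-width of the 95% interval had a median of 0.28 over the members and 0.25 over all genes. The adjusted p of every member was 0.999.

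**Figure D1:**
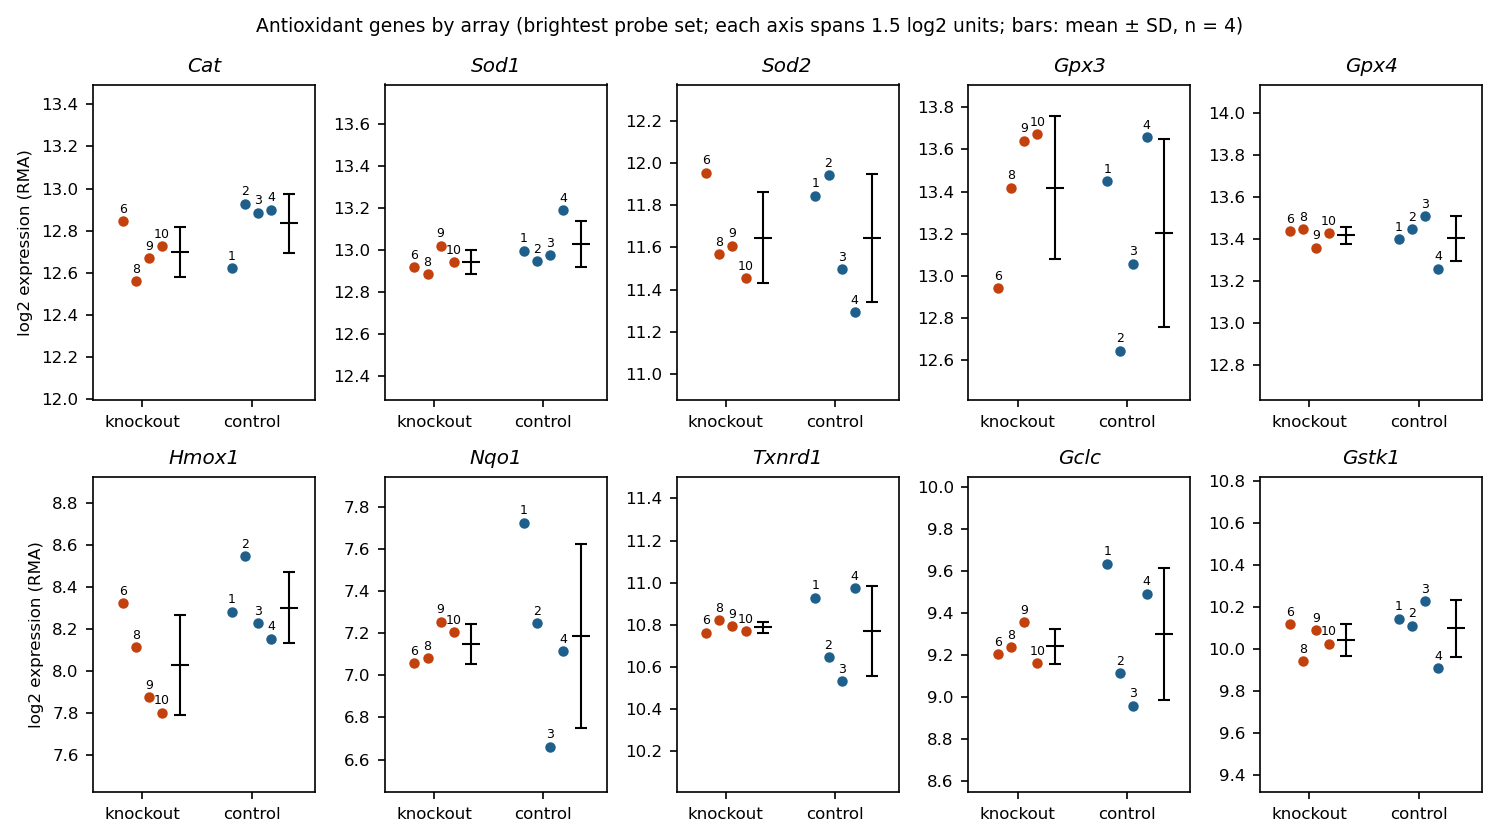
Log2 expression (RMA) of the 10 antioxidant genes by array, knockout left and control right, with array numbers beside the points and the mean ± SD (n = 4) as bars. The groups overlap in all 10 panels, and Nqo1, Txnrd1 and Gclc are spread more widely in the controls.

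Catalase stood slightly lower in knockout, by less than the spread between arrays. Cat (chromosome 2, 103453904 to 103485153 on GRCm38.p6) read 12.85, 12.56, 12.67 and 12.73 in knockouts 6, 8, 9 and 10, against 12.62, 12.93, 12.89 and 12.90 in controls 1, 2, 3 and 4. Of the knockout arrays, number 8 was below every control, and control 1 lay inside the knockout range. The means were 12.70 ± 0.12 in knockout and 12.83 ± 0.14 in control (SD, n = 4 each). Knockout minus control was -0.13, and the 95% interval ran between -0.35 and 0.08. In linear terms the knockout level was 0.911 of control (0.783 to 1.06). The limma adjusted p was 0.999. Permuting the arrays in all 70 ways gave a two-sided exact p of 0.229, and 0.0286 is the smallest that 4 against 4 arrays allow. The second catalase probe set gave 12.76, 12.52, 12.67 and 12.55 in the knockouts, against 12.64, 12.88, 12.69 and 12.77 in the controls. It differed by -0.12 (-0.31 to 0.08) and followed the first over the 8 arrays with a Pearson r of 0.83. Without control 1, the array with high liver markers and the lowest Cat of the controls, the difference was -0.20. Its unadjusted limma p was 0.0461, with 0 members and 0 genes past the adjusted threshold. In that fit 582 of 18193 genes had an unadjusted p under 0.05, and no other alternative gave this for Cat. Without knockout 8, the array with high epididymal markers, the Cat difference was -0.09.

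The sequence before the catalase start is shown because catalase is an enzyme that PEX5 carries, and the windows of Txnrd1 and Sod1 because they were the member windows that held an antioxidant response element core. Sequences are RefSeq's on GRCm38.p6, for the 250 bases before a start, and 8 members had at least 1 of 13 windows. Hmox1 and Gclc, both named above as NRF2 targets, had no window, and sequence farther from a start was not searched. The core, TGACNNNGC, is the short form of the element that NRF2 binds, and CCAAT is a common promoter box; both strands were searched, and the motifs share no position in the windows printed. Capitals mark CCAAT or its reverse complement in the first sequence and the element core in the others.
Cat, chr2:103485154-103485403, minus strand: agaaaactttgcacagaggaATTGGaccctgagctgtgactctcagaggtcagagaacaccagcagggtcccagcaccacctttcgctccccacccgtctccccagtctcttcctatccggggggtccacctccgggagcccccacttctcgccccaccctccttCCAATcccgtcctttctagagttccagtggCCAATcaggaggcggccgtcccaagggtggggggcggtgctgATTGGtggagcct
Txnrd1, chr10:82858956-82859205, plus strand: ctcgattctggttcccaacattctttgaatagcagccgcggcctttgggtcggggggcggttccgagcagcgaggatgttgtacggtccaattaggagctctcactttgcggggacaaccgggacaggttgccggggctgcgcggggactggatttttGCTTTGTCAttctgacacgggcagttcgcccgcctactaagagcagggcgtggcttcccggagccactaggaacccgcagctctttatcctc
Sod1, chr16:90220512-90220761, plus strand: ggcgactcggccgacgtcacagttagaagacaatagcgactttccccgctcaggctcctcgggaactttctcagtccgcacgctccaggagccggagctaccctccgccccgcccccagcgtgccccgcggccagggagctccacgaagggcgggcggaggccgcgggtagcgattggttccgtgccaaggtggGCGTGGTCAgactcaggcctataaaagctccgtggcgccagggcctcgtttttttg
The catalase window held CCAAT at 4 places and the element core at 0. CCAAT was present in 8 of the 13 member windows, against 33.8% of all 32851 windows in the table, and the element core in 2 of 13, against 10.2% of all windows. By gene, CCAAT was found in 6 of the 8 members with a window. The windows are not separate, because Gpx4 and Txnrd1 had several each, and some of Gpx4 overlap and share CCAAT sites. Enrichment was not tested.

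Gstk1, the kappa class glutathione transferase found in peroxisomes and mitochondria, also showed no group difference beyond the spread between arrays. It read 10.12, 9.94, 10.09 and 10.03 in knockouts 6, 8, 9 and 10, against 10.14, 10.11, 10.23 and 9.91 in controls 1, 2, 3 and 4. The knockout values all lay inside the control range. The difference was -0.05 (-0.25 to 0.14), a ratio of 0.963 (0.841 to 1.10).

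The superoxide dismutases showed no group difference beyond their spread. Sod1, the cytosolic copper and zinc enzyme, read 12.92, 12.88, 13.02 and 12.94 in knockouts 6, 8, 9 and 10, against 13.00, 12.95, 12.97 and 13.19 in controls 1, 2, 3 and 4 by its brightest probe set. Although 3 knockout arrays lay below every control, knockout 9 lay above 3 of the controls. The difference was -0.09 (-0.26 to 0.09), and its exact permutation p was 0.200. Sod2, the manganese enzyme of the mitochondrial matrix, read 11.96, 11.57, 11.61 and 11.46 in knockouts 6, 8, 9 and 10, against 11.85, 11.94, 11.50 and 11.29 in controls 1, 2, 3 and 4. Controls 1 and 2 and knockout 6 were the high arrays and control 4 the lowest. The Sod2 difference was 0.00278 (-0.38 to 0.38). Its sign was negative with array medians subtracted (-0.02), and within array set 1 the difference was -0.13, against 0.14 within set 2.

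The glutathione peroxidases differed in how steady they were. Gpx4, which reduces lipid peroxides inside membranes, read 13.44, 13.45, 13.36 and 13.43 in knockouts 6, 8, 9 and 10, against 13.40, 13.45, 13.51 and 13.26 in controls 1, 2, 3 and 4. Its SD over the 8 arrays was 0.08, and 7.91% of genes had a smaller one. The difference was 0.01 (-0.15 to 0.18), an interval that held ratios from 0.901 to 1.13. With array medians subtracted the difference was -0.01. Gpx3, the secreted peroxidase of plasma, read 12.94, 13.42, 13.64 and 13.67 in knockouts 6, 8, 9 and 10, against 13.45, 12.64, 13.06 and 13.66 in controls 1, 2, 3 and 4. It was low in control 2, knockout 6 and control 3, and high in knockouts 9 and 10 and control 4. Its SD over the 8 arrays was 0.39, larger than that of 90.0% of genes. Gpx3 differed by 0.22 (-0.34 to 0.77), and leaving out 1 array moved this from 0.03 without control 2 to 0.38 without knockout 6.

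Among the NRF2 targets, Hmox1 had the largest difference and the others were near 0. Hmox1, which breaks down haem, read 8.32, 8.11, 7.87 and 7.80 in knockouts 6, 8, 9 and 10, against 8.28, 8.55, 8.23 and 8.15 in controls 1, 2, 3 and 4. Knockouts 8, 9 and 10 lay below every control, and knockout 6 lay above 3 of the controls. The means were 8.03 ± 0.24 in knockout and 8.30 ± 0.17 in control (SD, n = 4 each), which differ by -0.27 (-0.58 to 0.03). The ratio was 0.827 (0.668 to 1.02), the limma adjusted p 0.999 and the exact permutation p 0.171. When limma took the array set as a block, the unadjusted p was 0.0153 and the adjusted p 0.932. In that fit 703 of 18193 genes had an unadjusted p under 0.05. Without knockout 6 the Hmox1 difference was -0.37, with an unadjusted limma p of 0.0183 and an adjusted p of 0.999. There 398 of 18193 genes had an unadjusted p under 0.05. Within array set 1 the difference was -0.20, and within set 2 it was -0.35, where both knockouts lay below both controls. Limma gave an unadjusted p of 0.0262 within set 2, where 244 of 18193 genes were under 0.05 and 0 were called. In all, 4 alternatives gave Hmox1 an unadjusted p under 0.05, the other being the RNA quality covariate given below. Macrophages are a main site of Hmox1, and the mean of 12 macrophage markers was 9.33 to 9.81 on knockout arrays and 9.65 to 10.10 on control arrays, with 11 of 12 lower in knockout. Knockout 6 had the lowest macrophage mean, 9.33, and the highest Hmox1 of the knockouts. The part of macrophages in the Hmox1 difference was not tested.

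Nqo1, a quinone reductase, read 7.06, 7.08, 7.26 and 7.21 in knockouts 6, 8, 9 and 10, against 7.73, 7.25, 6.66 and 7.12 in controls 1, 2, 3 and 4. The controls surrounded the knockouts on both sides. The difference was -0.04 (-0.49 to 0.41), made of -0.42 within array set 1 and 0.34 within array set 2. The interaction of genotype with array set, 0.76, had an unadjusted limma p of 0.0373, with 3.24% of all genes under 0.05, and did not pass after adjustment. Without control 1 the Nqo1 difference was 0.14. It was the member whose mean did not reach the median of all genes, 7.58.

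Txnrd1, the cytosolic thioredoxin reductase, read 10.76, 10.82, 10.79 and 10.77 in knockouts 6, 8, 9 and 10, against 10.93, 10.64, 10.53 and 10.97 in controls 1, 2, 3 and 4. The knockouts spanned a narrow band in the middle of the controls. The difference was 0.02 (-0.23 to 0.26), and -0.01 with array medians subtracted. Gclc, the catalytic subunit of the enzyme that starts glutathione synthesis, read 9.20, 9.24, 9.36 and 9.16 in knockouts 6, 8, 9 and 10, against 9.63, 9.11, 8.96 and 9.49 in controls 1, 2, 3 and 4. Controls 1 and 4 were again above and controls 2 and 3 below all knockouts. The Gclc difference was -0.06 (-0.40 to 0.28), and within array sets 1 and 2 it was -0.15 and 0.03.

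By their brightest probe sets, Txnrd1 and Gclc followed a like order over the arrays. Over the 8 arrays their Pearson r was 0.92 (exact permutation p = 0.00223) and their Spearman rho 0.93 (exact permutation p = 0.00223). After Benjamini-Hochberg adjustment over the 45 pairs of members both p-values were 0.1004, and 0 pairs passed 0.05, with 6 at an unadjusted p under 0.05 for Pearson's r. Without controls 3 and 4, the arrays farthest from the Txnrd1 median, r was 0.88. An array set or a genotype holds too few arrays for a value of its own. The other 2 Txnrd1 probe sets did not show this order: they read lowest on knockout 9, at 7.54 and 6.88, where Gclc was the highest of the knockouts. In Gpx3 and Hmox1 the order ran the other way, with r = -0.85 and rho = -0.83 (exact permutation p = 0.00707 and 0.0154, adjusted 0.159 and 0.346), and r = -0.63 without control 2 and knockout 6.

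The controls were more variable than the knockouts in 9 of 10 members, Hmox1 being the exception, as they were in 66.7% of all genes. The SD of Txnrd1 was 0.03 in knockout and 0.21 in control, a ratio of 8.05 that 0.967% of genes reached. The SD of Nqo1 was 0.10 in knockout and 0.44 in control, a ratio reached by 4.08% of genes, and that of Gclc was 0.08 in knockout and 0.32 in control, reached by 6.85%. These ratios were picked after their values were seen and were not tested. For Txnrd1 the other probe sets ran the other way, with SDs of 0.39 and 0.28 in knockout, against 0.15 and 0.09 in control. Knockout 9 carried much of these knockout SDs, at 7.54 and 6.88, against 8.19 to 8.40 and 7.33 to 7.46 on the other knockouts. It was also an array with a large 3' minus 5' difference, 4.65, and the part of that was not tested. The second Gclc probe set had SDs of 0.16 in knockout and 0.21 in control.

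Several members moved with the RNA quality measure, which rests on pyruvate carboxylase alone. On the 3 arrays with the large difference between 3' and 5' probe sets, Sod1 read 13.00 to 13.19, against 12.88 to 12.97 on the other 5. Gclc likewise read 9.36 to 9.63 on the 3 arrays, against 8.96 to 9.24, and Gpx4 read 13.26 to 13.40, against 13.43 to 13.51. These 3 of 10 members did not overlap between the array classes, while 6.02% of all genes did not. Of the 22 probe sets 4 did not overlap, among them a second one of Sod1 at 12.97 to 13.05 against 12.74 to 12.85, with 8.38% of all 45037 probe sets. The second probe sets of Gpx4 and Gclc and the remaining ones of Sod1 overlapped. With this measure as a covariate the differences were -0.15 for Cat, -0.31 for Hmox1, 0.33 for Gpx3 and 0.01 for Gclc. In that fit limma called 0 members, and Hmox1 had an unadjusted p of 0.0481 and an adjusted p of 0.978. Of 18193 genes 674 had an unadjusted p under 0.05 there. Of the 3 arrays, control 1 also had the highest liver markers and control 4 the highest neutrophil markers. The part of each in these values was not tested.

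**Figure D2:**
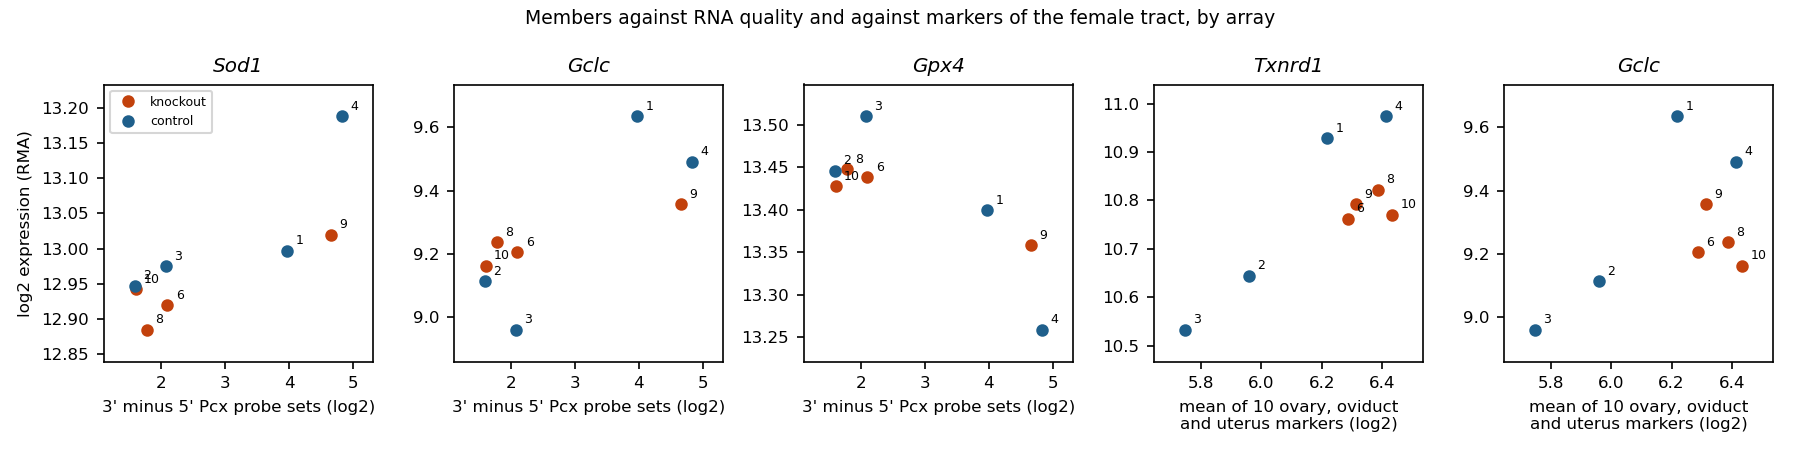
Log2 expression (RMA) of Sod1, Gclc and Gpx4 against the 3' minus 5' difference of pyruvate carboxylase (log2), and of Txnrd1 and Gclc against the mean of 10 ovary, oviduct and uterus markers (log2), 1 point per array, knockout and control coloured apart. Knockout 9 and controls 1 and 4 stand to the right in the first 3 panels, and controls 2 and 3 stand to the left and low in the last 2, where Greb1 carries much of the marker mean.

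On the 5 arrays with the small difference, knockouts 6, 8 and 10 and controls 2 and 3, limma called 155 genes, 0.852% of all, and 12.6% of all genes had an unadjusted p under 0.05. This subset was chosen after seeing the data. Of the 10 members 0 were called there and 0 had an unadjusted p under 0.05, the smallest adjusted p being 0.459. Cat differed by -0.20, Hmox1 by -0.31, Gpx3 by 0.49, Txnrd1 by 0.20 and Gclc by 0.16. Controls 2 and 3, the only controls of that subset, were also the arrays with the lowest mean of 10 ovary, oviduct and uterus markers. It was 6.29 to 6.43 on the knockout arrays, against 5.96 and 5.75 on controls 2 and 3 and 6.22 and 6.41 on controls 1 and 4. That low mean was carried largely by Greb1, which read 9.13 to 10.12 on the knockouts, against 7.92 and 4.92 on controls 2 and 3 and 9.35 and 9.57 on controls 1 and 4. Without Greb1 the mean was 5.91 to 6.05 on the knockouts, against 5.74 and 5.84 on controls 2 and 3 and 5.87 and 6.06 on controls 1 and 4. In 3 of the 10 markers, Pgr, Greb1 and Ovgp1, controls 2 and 3 were the lowest 2 arrays, while Msx1 was highest on control 3. Txnrd1 and Gclc, by their brightest probe sets, were lowest on the same 2 arrays, and the part of the markers in this was not tested. Whether these arrays differ in sex is not given by the labels.

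Different probe sets of a member did not always follow each other. The 3 further probe sets of Sod2 followed the brightest with r of 0.80 to 0.98 over the 8 arrays, and that of Gpx4 with r of 0.93. Those of Txnrd1 did not, at -0.10 and 0.05, and those of Sod1 ran from -0.24 to 0.53. The Sod1 probe sets with r of -0.24 and 0.03 were dim, with means of 6.48 and 3.10, against 12.98 for the brightest. The lowest value of any probe set was 2.71, so the values of the dimmer one say little about Sod1. The brightest probe sets of Sod1 and Gclc are of a type, marked _s_at, whose probes can match transcripts of more than 1 gene. Of the 22 probe sets 13 were lower and 9 higher in knockout, 0 passed the limma test over all 45037 probe sets (0% called), and 0 had an unadjusted p under 0.05, against 2.53% of all. In 0 of the 22 were the groups apart, against 1.60% of all probe sets. Signs differed within Sod1, Sod2, Txnrd1 and Gclc.

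**Figure D3:**
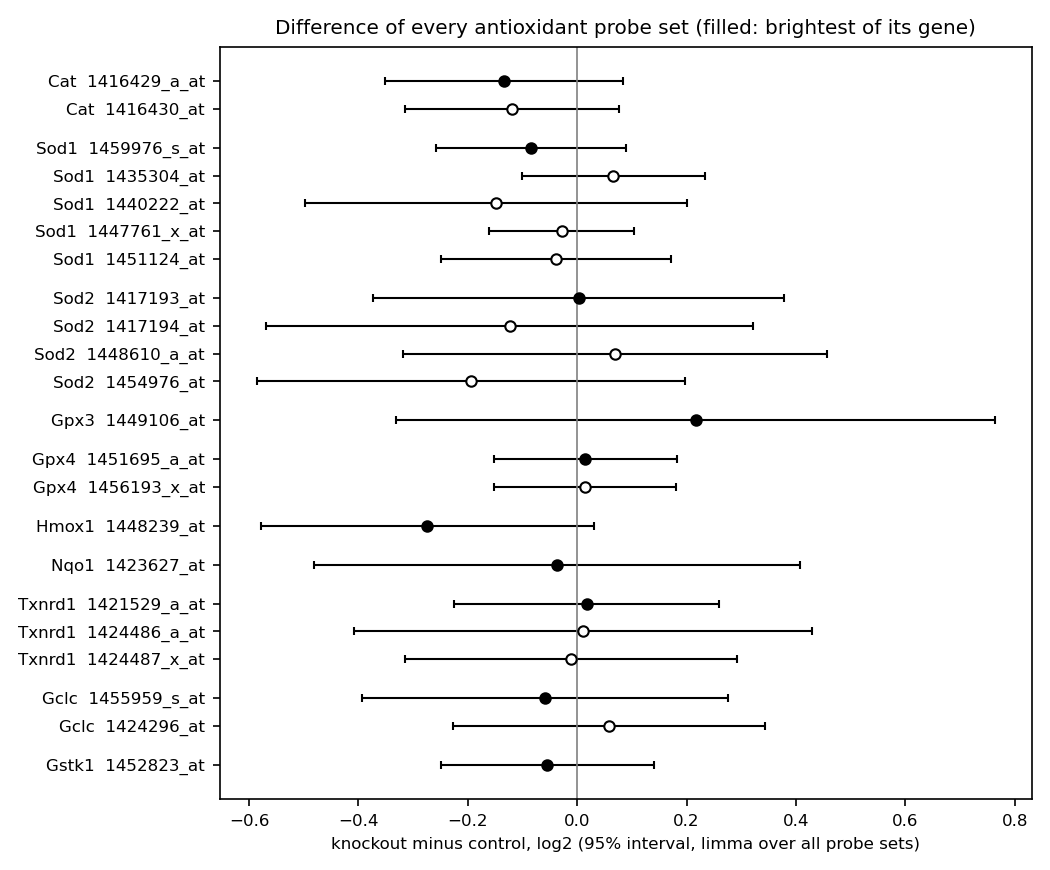
Difference between knockout and control (log2, knockout minus control) of the 22 antioxidant probe sets with the 95% interval from limma over all probe sets, filled points for the brightest probe set of each gene. Every interval includes 0, and the widest belongs to Gpx3.

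Genes around the members were not called either, though some differed more between the groups than any member did. Of 129 further genes in 10 lists of redox biology, 0 passed the limma test over all genes, 69 were lower and 60 higher in knockout, with a median of -0.01. Only 2 of them, 1.55% against 2.56% of all genes, had an unadjusted p under 0.05. One was Txndc12, a thioredoxin-like protein of the endoplasmic reticulum, at 10.27, 10.21, 10.34 and 10.22 in knockouts 6, 8, 9 and 10, against 10.49, 10.45, 10.44 and 10.38 in controls 1, 2, 3 and 4. Its groups did not overlap and differed by -0.18 (-0.32 to -0.04). Groups did not overlap in 2 of the 129, which is 1.55% against 1.70% of all genes, the other being Prdx4, the peroxiredoxin of the endoplasmic reticulum, named after its values were seen. Prdx4 read 10.01 to 10.13 in knockout and 10.13 to 10.21 in control, a difference of -0.08 (-0.22 to 0.06). The second at an unadjusted p under 0.05 was Slc3a2, the heavy chain of amino acid transporters such as the cystine importer, at 11.27 ± 0.09 in knockout and 11.05 ± 0.11 in control (SD, n = 4 each), a difference of 0.22 (0.04 to 0.41). Txndc12 and Slc3a2 had a limma adjusted p of 0.999.

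Among genes that remove superoxide and peroxide, 6 of 11 were lower, with Prdx3, the mitochondrial peroxiredoxin, at -0.19 (-0.47 to 0.09) and the glutathione peroxidase Gpx2 at -0.15. In the thioredoxin and glutaredoxin list 8 of 16 were lower, Glrx, which removes glutathione from proteins, standing at 0.17. In glutathione synthesis and recycling 8 of 13 were lower, Chac2, which degrades glutathione, standing at 0.49 (-0.19 to 1.16). Of the NRF2 regulators and other targets 8 of 17 were lower (Ugdh -0.17, Cbr3 -0.17), of haem and iron genes 4 of 8 (the iron exporter Slc40a1 0.22, Fech -0.13), and of selenoproteins and their synthesis genes 8 of 18 (Selenom 0.15, Selenon -0.14). The NADPH supply list leaned lower, with 8 of 9 below control and a median of -0.09, Me1 (malic enzyme) at -0.65 (-1.51 to 0.22) and Tkt (transketolase) at -0.35. Of 8 NADPH oxidase subunits 6 were lower, with a median of -0.18. Cybb, the catalytic subunit of phagocytes, stood at -0.34 (-0.71 to 0.02) and Ncf1 at -0.26, beside the lower macrophage markers given above. Of 8 neutrophil markers 7 were also lower in knockout, with a median of -0.47, and Ncf1 was highest, at 9.05, on control 4, where those markers stood apart. The part of either cell type was not tested.

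Wide values were seen among glutathione transferases and oxidases that release hydrogen peroxide. Of 21 transferases 10 were lower, with Mgst3, a microsomal enzyme, at 0.13 and Gstm5 at 12.26, 12.40, 11.78 and 11.80 in knockouts 6, 8, 9 and 10, against 12.13, 10.99, 10.17 and 12.27 in controls 1, 2, 3 and 4. Of 8 peroxisomal oxidases 3 were lower. Dao, which oxidises D-amino acids, read 9.38, 9.46, 8.76 and 9.06 in knockouts 6, 8, 9 and 10, against 9.26, 7.55, 5.36 and 9.14 in controls 1, 2, 3 and 4. Pipox, which oxidises pipecolic acid and sarcosine, read 9.14, 9.44, 8.28 and 8.60 in knockouts 6, 8, 9 and 10, against 9.13, 7.41, 5.90 and 9.17 in controls 1, 2, 3 and 4. In all 3 genes controls 2 and 3 stood alone below the other arrays, as they did for the brightest probe sets of Txnrd1 and Gclc. Gstm7, named after its values were seen, had the widest range of the 129 genes, 4.23, and read 9.62 to 10.81 on the knockouts, against 8.77 and 7.003 on controls 2 and 3, its lowest arrays. Gpx5, an epididymal peroxidase named likewise, had a range of 3.58, with 9.67 on knockout 8 and 6.08 to 6.52 on the other 7 arrays. Differences between the groups were 0.67 for Gstm5, 1.34 for Dao and 0.96 for Pipox, each with an interval that included 0. On the 5 arrays above, where these 2 controls were the whole control group, they were 1.57, 2.84 and 2.41, with limma adjusted p-values of 0.0754, 0.102 and 0.0858.

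**Figure D4:**
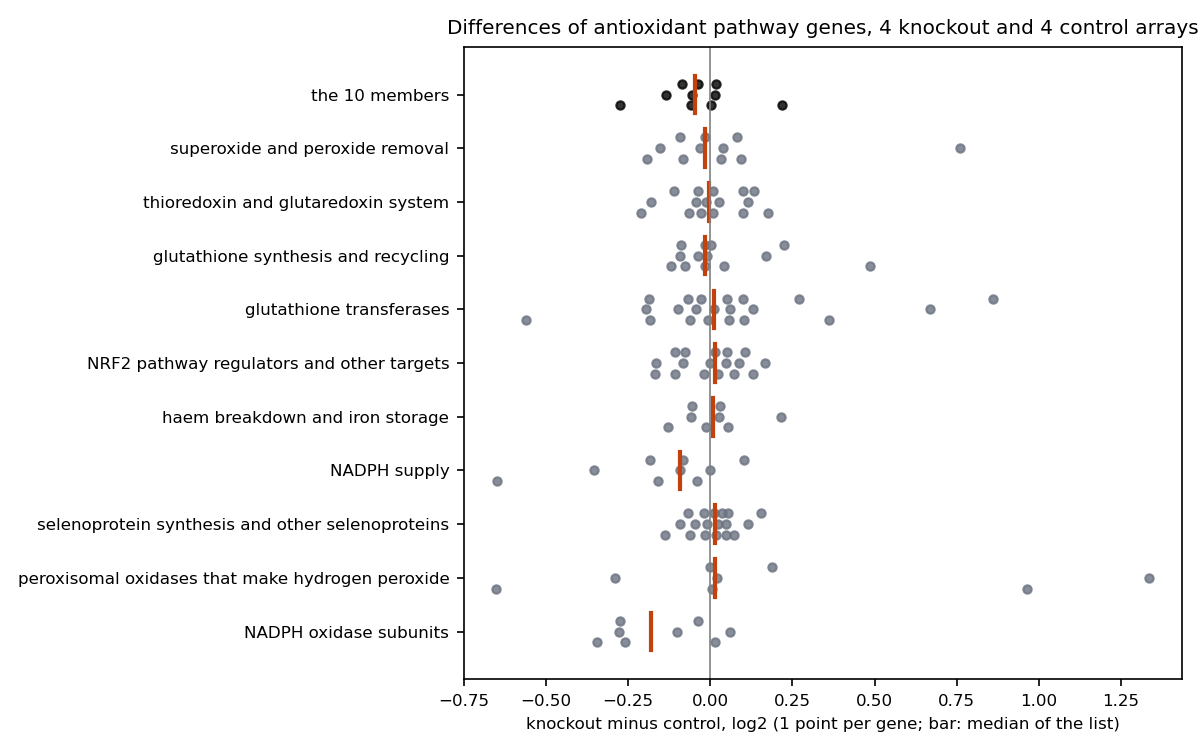
Difference between knockout and control (log2, knockout minus control, 4 arrays each) for the 10 members and for the genes of 10 redox lists, 1 point per gene, with the median of each list as a bar. The medians lie between -0.18 and 0.01, and Dao and Pipox stand farthest to the right.

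The genes whose pattern over the 8 arrays was most like that of Cat, out of 9095 above the median level, were Parp9, Icam2, Meox1, Prkd2 and Cxcr4, with Pearson r of 0.94, 0.90, 0.89, 0.89 and 0.89. They were picked as the highest of all, so these values describe the ranking and carry no test. Without knockout 8 and control 1, the arrays farthest from the Cat median, r was 0.95, 0.85, 0.75, 0.83 and 0.73. Their differences between knockout and control ran from -0.20 for Icam2 to -0.07 for Meox1. In 4 of the 5, all but Meox1, knockout 8 was the lowest array, as in Cat.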

How the data were processed

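White fat RNA of 8 samples was measured on 8 one-colour Affymetrix arrays. The table deposited by the authors holds log2 values made with RMA, per the submitters' processing notes, for 45101 probe sets, which give no version of RMA. RMA subtracts background, gives all arrays one distribution and summarises probes, so it can compress the differences of dim genes, and a table without raw intensities allows no other background correction. The 64 control probe sets were left out, and 45037 were tested. GEO's platform annotation gave 34945 of them 1 symbol, 932 several and 9160 none, and 34741 were found in RefSeq (GRCm38.p6), which changed 0 symbols. Each of 18193 genes was represented by its brightest probe set over the 8 arrays.

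Knockout and control, 4 arrays each, were compared over all genes with limma 3.58.1 (lmFit and eBayes, R 4.3.3) and Benjamini-Hochberg adjustment at 0.05. Differences are knockout minus control with 95% intervals. Single values also had two-sided exact permutation tests. Nothing in the labels says that the samples are separate animals, and p-values then cover only the spread between these samples, which may be technical. Tables and permutation tests used Python 3.11.15, pandas 2.3.3 and scipy 1.17.1, and figures matplotlib 3.10.9. On simulated data for this comparison, with 18193 genes of which 50 were changed at each size, limma called 31 of those changed 1.5-fold, 39 of those changed 2-fold, and 48 for each of 3-fold and 4-fold, and made 6 false calls. Precision is limited by the number of arrays.

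The members, the gene lists and the tests were chosen with earlier results of these data known. The text names Pex5, every member, the 2 genes with the smallest unadjusted p in each list of other redox genes (0 genes passed the adjusted threshold), and the 5 genes with the highest Pearson r with Cat among genes above the median level. Alternatives were other variance models, filters, scalings, probe set rules, array weights, the array set, RNA quality and leaving out each array.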

Additional observations from a re-analysis of the deposited data

Results flagged for a closer look

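Of 88 groups of 4 values checked, 3 held an array far from the others, and chance marks about 5% of groups. Cat read 12.62 on control 1, where the nearest control read 12.89 and the highest 12.93. Fech, the last enzyme of haem synthesis, read 11.04 on knockout 9, where the nearest knockout read 10.67. Cybb read 9.17 on knockout 6, where the nearest knockout read 9.51. Control 1 had the highest liver markers, knockout 9 a large difference between 3' and 5' probe sets and knockout 6 the lowest macrophage markers, and the part of each in these values was not tested.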

How the results depend on the processing

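No paired analysis was possible because the knockout arrays (6, 8, 9 and 10) and the control arrays (1, 2, 3 and 4) share no replicate number. Under every alternative 0 members were called, and 0 genes, except for 155 genes on the 5 arrays with a small 3' minus 5' difference, a subset chosen after seeing the data. Over 211 alternative values of the member differences 30 changed sign, and the smallest adjusted limma p was 0.459. Part of the 211 repeat the main difference by construction and could not change sign. These are the other variance model, the level filter, the permutation test, the array set as a block and the brightest probe set alone. Genes at an unadjusted p under 0.05 numbered from 206 of the 9096 genes above the median level to 2286 of 18193 on the 5 arrays. Cat, Gpx3, Hmox1 and Gstk1 kept their sign in all. With array medians subtracted, the sign changed for Sod2 (-0.0246), Gpx4 (-0.0126) and Txnrd1 (-0.0103). With RNA quality as a covariate it changed for Sod2 (-0.0287), Gpx4 (-0.0116), Nqo1 (0.00956) and Gclc (0.0115). On the 5 arrays it changed for Sod2 (-0.0588), Gpx4 (-0.0397), Nqo1 (0.161) and Gclc (0.165). Within array set 1 it changed for Sod2 (-0.13), and within array set 2 for Nqo1 (0.342) and Gclc (0.0343). Sod2 was also negative as the mean of its probe sets (-0.0617), with array weights (-0.100) and by 2 of its other probe sets alone (-0.124 and -0.195). Other probe sets changed the sign for Sod1 (0.0662), Txnrd1 (-0.0112) and Gclc (0.0585). The cause was not tested. Leaving out 1 array gave -0.20 to -0.09 for Cat, -0.11 to -0.03 for Sod1, -0.11 to 0.10 for Sod2 and 0.03 to 0.38 for Gpx3. It gave -0.0334 to 0.0502 for Gpx4, -0.37 to -0.19 for Hmox1, -0.21 to 0.14 for Nqo1 and -0.0620 to 0.0849 for Txnrd1. It gave -0.172 to 0.0524 for Gclc and -0.12 to -0.01 for Gstk1. The number of arrays limits what could be called. In simulated data with independent values limma called 31 of 50 genes changed 1.5-fold. That count need not hold for these arrays, whose genes share patterns.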
